A study of Homo sapiens with 24 samples.

Results

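Radiation of SAS cells with wild-type (WT) Nrf2 was examined by setting 3 irradiated libraries against 3 unirradiated ones, 6 of the 24 libraries of the study. SAS is a human oral squamous cell carcinoma line. Irradiated WT cells (labelled RT) had vehicle for 24 h, then x-rays at 4 Gy, and RNA was taken 24 h after that. Unirradiated WT cells (labelled Control) had neither radiation nor the glutaminase inhibitor CB-839, and their vehicle and collection time are not stated. For comparison, the same radiation was used on WT cells given 0.1 µM CB-839 (against WT cells given CB-839 alone) and on cells carrying Nrf2 E79Q (against untreated E79Q cells), with 3 libraries in each group. All groups share the SAS parent line. How the WT and E79Q cells were made, whether they are single clones and whether replicates were separate cultures are not stated, so p-values measure only the spread between libraries, which may be technical. The study text describes only the irradiated samples, and radiation and any difference in when the libraries were made cannot be told apart.

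Ionizing radiation breaks DNA, and the kinases that sense the breaks switch on p53, repair and cell cycle arrest. Cells that survive with damage can secrete cytokines, growth factors and proteases, a pattern called the senescence-associated secretory phenotype, which is driven largely by the transcription factors NF-kB and AP-1. Radiation is a standard treatment of oral squamous carcinoma. In bulk RNA of this kind, fewer cells of a type and less RNA per cell cannot be told apart.

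The 6 libraries held 16480586 to 19716856 counted reads. Across genes, the log2 CPM of 2 libraries correlated with a Pearson's r of 0.9896 to 0.9916 within a group and 0.9834 to 0.9853 between groups, where genes do not count as independent. Mitochondrially encoded genes took 2.644% to 2.982% of counts in irradiated libraries and 2.621% to 3.157% in unirradiated ones. All 12 squamous carcinoma markers checked had reads, among them KRT5, KRT8 and TP63, and the least abundant had 26 to 56 raw counts. The summed raw counts of 10 leukocyte markers were 95 to 140 in irradiated and 98 to 123 in unirradiated libraries, and 4 of the 10 were at 0 in all 6. For 6 endothelial markers the sums were 67 to 101 and 48 to 74, with 2 at 0 throughout. For 7 fibroblast markers they were 84 to 130 and 122 to 150, with 2 at 0 throughout. Few genes carried most of these counts. Over the 6 libraries CD14 had 31 to 62, CSF1R 42 to 89, VWF 41 to 83 and COL1A1 59 to 117.

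Radiation was followed by a broad change of small steps with a minority of large rises. Levels are CPM, counts scaled to library size, and a gene was called where edgeR's quasi-likelihood test gave a Benjamini-Hochberg adjusted p under 0.05 over all 15956 tested genes. By this rule 2855 genes (17.9%) changed, 1501 higher (9.41%) and 1354 lower (8.49%) in irradiated cells. Counts called within the gene lists below stand against these shares. Called changes of over 2-fold numbered 416, which is 2.61% of all tested genes, with 340 higher (2.13% of all tested) and 76 lower (0.476% of all tested). The median log2 fold change over all tested genes was 0.004. The CPM ranges of the 3 irradiated and 3 unirradiated libraries did not overlap for 6099 genes (38.2%). List members named below were mostly picked by the smallest p among called genes, which favours separate groups. Lack of overlap in them is therefore a description and adds no support.

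**Figure D1:**
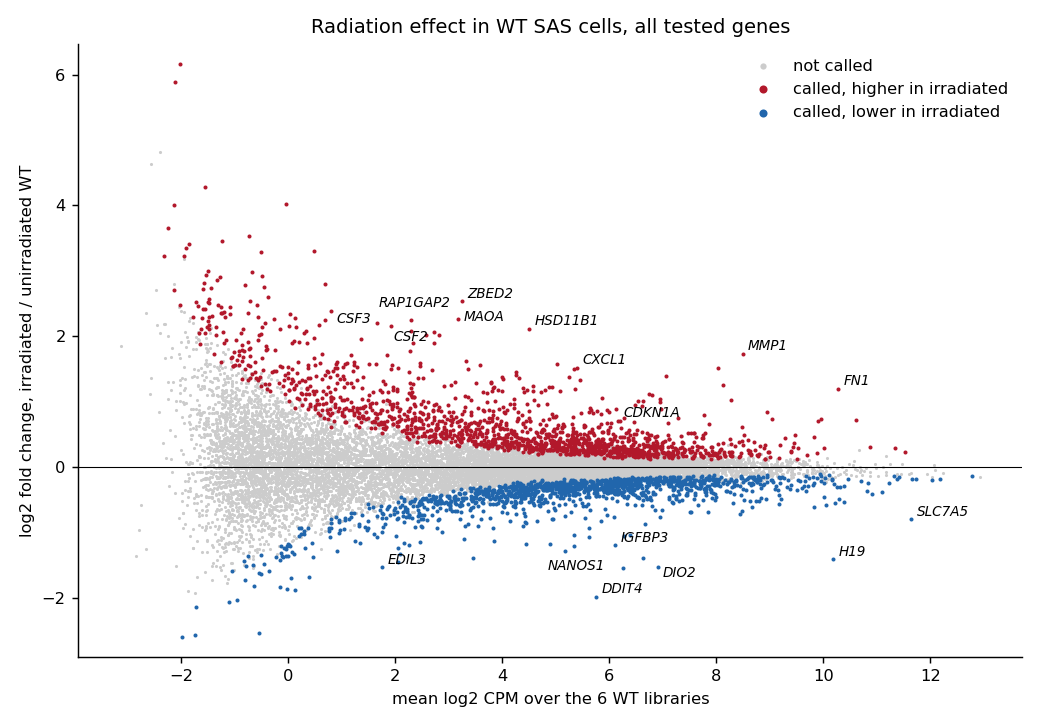
Log2 fold change of irradiated over unirradiated WT cells against mean log2 CPM over the 6 libraries for the 15956 tested genes, 1 point a gene, red where called higher, blue where called lower and grey where not called. Few genes of high CPM changed much: MMP1 and FN1 stand out above the cloud, and H19, SLC7A5 and DDIT4 below it.

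Secreted signals rose as a group. Of 18 tested chemokine and cytokine genes, 12 rose and 2 fell, with a median log2 fold change of 0.64, against 0.004 over all genes and 9.41% of them called higher. CXCL1, CXCL2 and CXCL8, which draw in neutrophils, are shown first by their promoters, along with CSF2 and the NF-kB inhibitor TNFAIP3. These are the RefSeq promoter windows on GRCh38.p14, 250 bases before to 50 after the gene start, printed on the gene's strand. Capitals mark matches, on either strand, to the kappaB motif GGNNNTTCC or the AP-1 motif TGANTCA. The windows were picked as genes that rose and hold a kappaB match, so they do not show how often rising genes hold one.
CXCL1: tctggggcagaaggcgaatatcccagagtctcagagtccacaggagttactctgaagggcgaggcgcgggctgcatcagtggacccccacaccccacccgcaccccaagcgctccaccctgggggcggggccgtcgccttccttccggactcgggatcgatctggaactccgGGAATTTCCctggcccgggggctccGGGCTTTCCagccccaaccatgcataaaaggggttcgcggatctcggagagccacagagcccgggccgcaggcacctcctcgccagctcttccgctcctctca
CXCL2: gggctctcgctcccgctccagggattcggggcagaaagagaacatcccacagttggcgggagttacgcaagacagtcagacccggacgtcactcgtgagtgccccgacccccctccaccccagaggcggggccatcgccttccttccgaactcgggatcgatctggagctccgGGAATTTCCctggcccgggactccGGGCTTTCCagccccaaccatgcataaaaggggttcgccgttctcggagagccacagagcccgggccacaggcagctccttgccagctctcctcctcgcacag
CXCL8: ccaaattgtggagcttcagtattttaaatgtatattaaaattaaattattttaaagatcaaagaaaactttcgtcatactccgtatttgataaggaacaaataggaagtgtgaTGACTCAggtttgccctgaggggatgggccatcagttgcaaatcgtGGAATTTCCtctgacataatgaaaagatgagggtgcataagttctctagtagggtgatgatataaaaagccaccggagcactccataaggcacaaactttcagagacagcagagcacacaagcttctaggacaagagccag
CSF2: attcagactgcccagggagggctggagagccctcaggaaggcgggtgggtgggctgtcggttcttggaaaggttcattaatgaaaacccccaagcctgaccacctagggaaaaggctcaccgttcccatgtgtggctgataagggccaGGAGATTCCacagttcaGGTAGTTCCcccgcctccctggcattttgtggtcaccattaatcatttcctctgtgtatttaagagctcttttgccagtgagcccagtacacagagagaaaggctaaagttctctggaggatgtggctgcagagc
TNFAIP3: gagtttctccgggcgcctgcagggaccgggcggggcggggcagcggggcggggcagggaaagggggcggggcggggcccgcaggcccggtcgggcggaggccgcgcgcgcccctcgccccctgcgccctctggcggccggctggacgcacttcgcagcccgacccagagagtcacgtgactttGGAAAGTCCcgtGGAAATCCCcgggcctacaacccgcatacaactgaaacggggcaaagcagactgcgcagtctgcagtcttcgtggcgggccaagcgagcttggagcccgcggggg
They lie at chr4:73869143-73869442 (plus strand), chr4:74099146-74099445 (minus), chr4:73740319-73740618 (plus), chr5:132073539-132073838 (plus) and chr6:137867009-137867308 (plus). The same 9 letters, GGAATTTCC, begin at position -78 in CXCL1, -77 in CXCL2 and -91 in CXCL8, counted from the gene start. CXCL1 and CXCL2 windows share 72.1% of their bases, whereas CXCL8 adds an AP-1 match, TGACTCA, at -137.

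Among genes of the chemokine and cytokine list with a RefSeq promoter, 7 of 12 (58.3%) held the kappaB motif GGNNNTTCC. Among those 7, CXCL1, CXCL2 and CXCL3 are close copies and do not count as independent. It was in 10 of 17 (58.8%) promoters of a list of NF-kB subunits and targets. As that list holds standard NF-kB targets, a high share there follows partly from the choice. The same letters stood in 23.2% of 10130 promoters of tested protein-coding genes and in 20.1% of all 27305 windows. Genes called higher held it in 21.8% of 999 promoters, and those higher by over 2-fold in 21.7% of 166, so the motif did not mark the risers as a whole. In the NF-kB list NFKB1 and NFKBIA, not called, and TNFAIP2, which fell, held it, while NFKB2, which rose, did not. The AP-1 motif was in 13.3% of those 166, against 4.71% of the tested promoters. A match is a description of letters and not evidence of binding.

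CXCL1 had 69.8, 77.2 and 67.9 CPM in irradiated libraries, against 22.9, 25.5 and 26.4 CPM in unirradiated libraries (log2 fold change 1.52 ± 0.10 SE, adjusted p = 7.65e-12). CXCL8 had 18.1, 20.2 and 19.7 CPM in irradiated libraries, against 8.74, 9.57 and 8.11 CPM in unirradiated libraries (log2 fold change 1.13 ± 0.09 SE, adjusted p = 2.05e-10). The groups did not overlap for either gene. CXCL2 and CXCL3, named after their values were seen, had log2 fold changes of 1.36 and 1.47. CXCL1, CXCL2 and CXCL3 are close copies, and how reads matching several of them were counted is not stated.

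Both colony-stimulating factors for granulocytes rose, at low CPM in all libraries. CSF3, which drives neutrophil production, had 6.08, 6.76 and 6.69 CPM in irradiated libraries, against 1.48, 1.32 and 1.42 CPM in unirradiated libraries (log2 fold change 2.20 ± 0.22 SE, adjusted p = 1.57e-08). CSF2, which acts on granulocytes and macrophages, had 8.71, 8.13 and 6.4 CPM in irradiated libraries, against 1.92, 1.6 and 1.7 CPM in unirradiated libraries (log2 fold change 2.15 ± 0.21 SE, adjusted p = 2.06e-08). Every irradiated library lay above every unirradiated one for both. CSF1, the macrophage factor, averaged 19 ± 3 CPM in irradiated and 20.1 ± 2.1 CPM in unirradiated libraries (SD, n = 3 each) and was not called (adjusted p = 0.715).

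IL6, an inflammatory cytokine, had 10.2, 7.98 and 8.07 CPM in irradiated libraries, against 4.56, 4.7 and 5.05 CPM in unirradiated libraries (log2 fold change 0.88 ± 0.14 SE, adjusted p = 6.32e-05). The 2 members that fell did so by small steps. VEGFA, an angiogenic factor, had 104, 107 and 109 CPM in irradiated libraries, against 120.2, 117 and 124 CPM in unirradiated libraries (log2 fold change -0.18 ± 0.06 SE, adjusted p = 0.0326, and adjusted p = 0.122 without unirradiated library 3). VEGFA was not called in 5 of the 6 fits that left out 1 library. IL24, a cytokine of the IL10 family, fell by 0.35 on the log2 scale (adjusted p = 0.00601, and 0.0501 without irradiated library 1). Without 1 of the 6 libraries in turn, 12 of the 18 were higher each time, and 0 to 2 were lower.

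**Figure D2:**
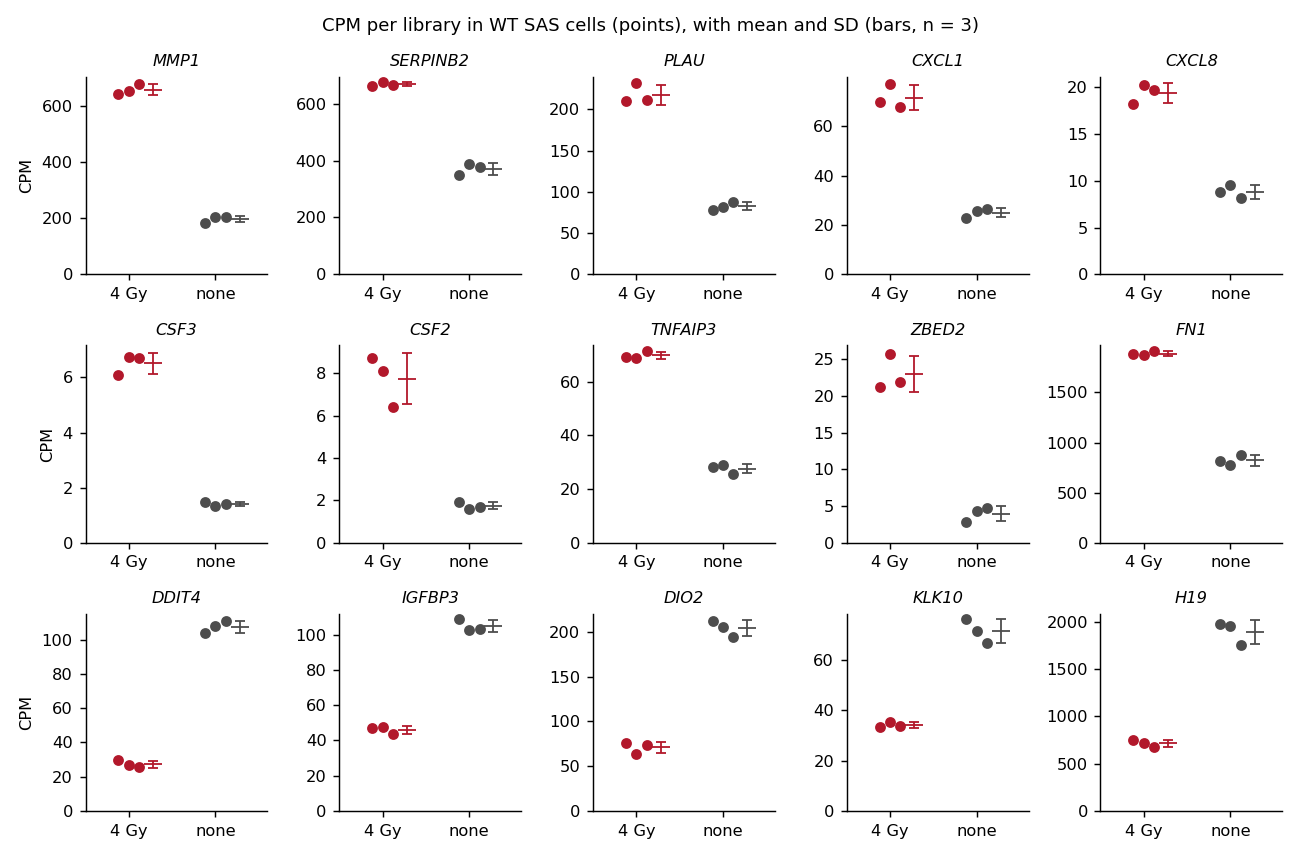
CPM in each of the 3 irradiated (red, 4 Gy) and 3 unirradiated (grey, none) WT libraries for 15 genes, on linear axes that start at 0, with the mean and SD beside the points. In every panel the groups are separate: the upper 10 genes are higher and the lower 5 are lower after radiation.

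NF-kB itself changed unevenly. Of 20 tested genes for its subunits, inhibitors and standard targets, 10 rose and 1 fell, with a median log2 fold change of 0.30. TNFAIP3, the A20 enzyme that shuts NF-kB signalling down, had 69.1, 68.9 and 71.3 CPM in irradiated libraries, against 28.2, 28.8 and 25.8 CPM in unirradiated libraries (log2 fold change 1.34 ± 0.07 SE, adjusted p = 1.75e-13). TRAF1, an adaptor of TNF receptors, had 3.9, 4.57 and 5.92 CPM in irradiated libraries, against 1.54, 1.66 and 1.59 CPM in unirradiated libraries (log2 fold change 1.57 ± 0.20 SE, adjusted p = 1.57e-06). Both were higher in all 3 irradiated libraries with no overlap.

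ICAM1, an adhesion molecule for leukocytes, had 102, 106 and 94.1 CPM in irradiated libraries, against 60.2, 58.3 and 60.5 CPM in unirradiated libraries (log2 fold change 0.76 ± 0.06 SE, adjusted p = 6.86e-10). NFKB2, the subunit of the noncanonical pathway, rose by 0.51 ± 0.06 SE on the log2 scale (adjusted p = 1.43e-07). TNFAIP2 was the member that fell, at 196, 202 and 196 CPM in irradiated libraries, against 261, 233 and 246 CPM in unirradiated libraries (log2 fold change -0.32 ± 0.06 SE, adjusted p = 0.000318). RELA, NFKB1 and NFKBIA, named after their values were seen, were not called and had log2 fold changes of -0.01, -0.08 and -0.03.

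Matrix proteases and genes of the plasminogen system rose. Of 24 tested secreted proteases, their inhibitors and senescence factors, 15 rose and 2 fell, with a median log2 fold change of 0.65. The summed CPM of the list was 3245 to 3366 in irradiated and 1874 to 1944 in unirradiated libraries. MMP1 (ENSG00000196611, chr11:102789920-102798160, minus strand, on GRCh38), the interstitial collagenase, had 642, 656 and 679 CPM in irradiated libraries, against 185, 203 and 205 CPM in unirradiated libraries (log2 fold change 1.74 ± 0.05 SE, adjusted p = 1.81e-18). Its irradiated libraries were all over 3 times the highest unirradiated one.

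MMP3, the stromelysin that can activate other matrix proteases, had 13.4, 14.5 and 14.2 CPM in irradiated libraries, against 3.46, 3.21 and 3.69 CPM in unirradiated libraries (log2 fold change 2.02 ± 0.14 SE, adjusted p = 1.91e-11). PLAU, the urokinase that turns plasminogen into plasmin, had 209, 231 and 211 CPM in irradiated libraries, against 78.3, 81.3 and 88.3 CPM in unirradiated libraries (log2 fold change 1.40 ± 0.07 SE, adjusted p = 9.77e-15). SERPINB2, an inhibitor of urokinase also called PAI-2, had 662, 676 and 666 CPM in irradiated libraries, against 348, 387 and 377 CPM in unirradiated libraries (log2 fold change 0.85 ± 0.06 SE, adjusted p = 7.78e-12). None of these genes overlapped between groups.

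IGFBP3, a carrier of insulin-like growth factors, was the main exception. It had 47.1, 47.3 and 43.4 CPM in irradiated libraries, against 109, 103 and 103 CPM in unirradiated libraries (log2 fold change -1.19 ± 0.08 SE, adjusted p = 2.98e-11), with the irradiated libraries far below the unirradiated ones. GDF15, a stress cytokine, had 21, 20.2 and 18.6 CPM in irradiated libraries, against 21.3, 22.5 and 20.3 CPM in unirradiated libraries and was not called (log2 fold change -0.10 ± 0.10 SE, adjusted p = 0.591).

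The 12 largest rises were taken among called protein-coding genes with a mean log2 CPM of at least 1. Genes whose groups overlapped in CPM were left out, so separation of the groups was a condition of the choice. These rises included CSF3, CSF2 and MMP3 above, with genes of varied function beside them. ZBED2 (ENSG00000177494, chr3:111592900-111595443, minus strand), a zinc-finger protein, had 21.2, 25.8 and 21.9 CPM in irradiated libraries, against 2.8, 4.35 and 4.71 CPM in unirradiated libraries (log2 fold change 2.54 ± 0.12 SE, adjusted p = 1.69e-14). MAOA, the mitochondrial enzyme that oxidizes monoamines, had 20.4, 21 and 17.9 CPM in irradiated libraries, against 3.57, 3.44 and 5.39 CPM in unirradiated libraries (log2 fold change 2.26 ± 0.16 SE, adjusted p = 2.01e-11). HSD11B1, which regenerates active cortisol from cortisone, had 46.7, 46.6 and 48.5 CPM in irradiated libraries, against 9.51, 11.2 and 12 CPM in unirradiated libraries (log2 fold change 2.12 ± 0.10 SE, adjusted p = 4.66e-15). In all 3 genes the lowest irradiated library was more than 3 times the highest unirradiated one.

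TLR4, the receptor for bacterial lipopolysaccharide, had 10.2, 12 and 13.5 CPM in irradiated libraries, against 2.58, 2.46 and 3.74 CPM in unirradiated libraries (log2 fold change 2.02 ± 0.18 SE, adjusted p = 2.46e-09). RNASE7, an antimicrobial ribonuclease of skin, had 13.2, 14.3 and 13.2 CPM in irradiated libraries, against 2.2, 4.13 and 3.35 CPM in unirradiated libraries (log2 fold change 2.07 ± 0.19 SE, adjusted p = 3.45e-09). CTSS, a lysosomal cathepsin, had 12.9, 12.4 and 12.7 CPM in irradiated libraries, against 2.91, 4.13 and 3.12 CPM in unirradiated libraries (log2 fold change 1.90 ± 0.13 SE, adjusted p = 9.07e-12). The other rises of this size were RAP1GAP2, a GTPase-activating protein for Rap1 (2.25), WNT7A, a Wnt ligand (1.97), and MYH15, a myosin heavy chain (1.89), all as log2 fold changes. Adjusted p-values were 2.94e-09, 9.78e-07 and 1.09e-08 in that order.

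Under the same conditions the largest fall was in DDIT4 (ENSG00000168209, chr10:72273920-72276036, plus strand), which encodes the mTORC1 inhibitor REDD1. DDIT4 had 29.5, 26.8 and 25.4 CPM in irradiated libraries, against 104, 108 and 111 CPM in unirradiated libraries (log2 fold change -1.98 ± 0.09 SE, adjusted p = 4.66e-15), and its groups were far apart. NANOS1, an RNA-binding regulator of translation, had 45.5, 44.3 and 43.9 CPM in irradiated libraries, against 143, 126 and 120.1 CPM in unirradiated libraries (log2 fold change -1.54 ± 0.08 SE, adjusted p = 4.73e-14). DIO2, the deiodinase that activates thyroid hormone, had 75.3, 63.6 and 73.5 CPM in irradiated libraries, against 212, 205 and 195 CPM in unirradiated libraries (log2 fold change -1.53 ± 0.11 SE, adjusted p = 2.17e-11). SYT12, a synaptotagmin, had 61.3, 59.2 and 62.6 CPM in irradiated libraries, against 162, 159 and 157 CPM in unirradiated libraries (log2 fold change -1.38 ± 0.07 SE, adjusted p = 4.73e-14). As for the rises, genes whose groups overlapped were left out of this ranking.

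DUSP9, a phosphatase of MAP kinases, and OTUD1, a deubiquitinase, fell with log2 fold changes of -1.27 and -1.20 (adjusted p = 5.47e-10 and 1.3e-10). NGFR, the low-affinity neurotrophin receptor, had 7.04, 7.37 and 5.98 CPM in irradiated libraries, against 20.1, 17.1 and 16 CPM in unirradiated libraries (log2 fold change -1.38 ± 0.18 SE, adjusted p = 1.4e-06). These genes were picked under the same condition of no overlap between groups. EDIL3, a secreted integrin ligand, and ST6GALNAC2, a sialyltransferase, fell by 1.52 and 1.24 on the log2 scale (adjusted p = 1.07e-05 and 0.00163). HCAR2 and HCAR3, receptors for hydroxycarboxylic acids, fell by 1.45 and 1.32 on the log2 scale (adjusted p = 3.67e-05 and 0.000639). They are near-identical neighbours, so their separate values are uncertain.

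p53 target genes did not move in one direction 24 h after radiation. Of 38 tested targets, 7 rose and 8 fell. Thus 39.5% were called, against 17.9% of all genes, where 9.41% were higher and 8.49% lower. The median log2 fold change was -0.01, near that of all genes. CDKN1A, the p21 inhibitor of cyclin-dependent kinases, had 89.3, 91.6 and 94 CPM in irradiated libraries, against 58.1, 55.1 and 54.4 CPM in unirradiated libraries (log2 fold change 0.71 ± 0.08 SE, adjusted p = 2.63e-07). PMAIP1, the pro-apoptotic NOXA, had 43.1, 44.7 and 45.1 CPM in irradiated libraries, against 26.3, 29.9 and 29.8 CPM in unirradiated libraries (log2 fold change 0.63 ± 0.08 SE, adjusted p = 1.24e-06). Both were separate between groups.

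TNFRSF10A, a TRAIL death receptor, and PLK3, a stress kinase, rose with log2 fold changes of 0.41 ± 0.07 and 0.36 ± 0.07 SE (adjusted p = 4.17e-05 and 0.000273). PHLDA3, an inhibitor of AKT, had 60.3, 57.5 and 52.2 CPM in irradiated libraries, against 77.5, 78.6 and 79.9 CPM in unirradiated libraries (log2 fold change -0.47 ± 0.07 SE, adjusted p = 2.83e-05). PLXNB2, a semaphorin receptor, had 260.4, 262 and 248 CPM in irradiated libraries, against 353, 313 and 325 CPM in unirradiated libraries (log2 fold change -0.36 ± 0.06 SE, adjusted p = 7.43e-05). Both were lower in every irradiated library. KITLG, the KIT ligand, fell by 0.45 on the log2 scale (adjusted p = 0.00511). When any one of the 6 libraries was left out, 5 to 8 targets were called higher and 3 to 8 lower, the lowest count of falls being without unirradiated library 2.

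MDM2, which degrades p53 and is its target, had 129, 126 and 131 CPM in irradiated libraries, against 114, 114 and 109 CPM in unirradiated libraries and was not called (log2 fold change 0.19 ± 0.08 SE, adjusted p = 0.12). Of 16 BCL2-family genes 4 rose and 1 fell (31.2% called, against 17.9% of all genes). BID, a pro-apoptotic member, had 63, 59.9 and 62.3 CPM in irradiated libraries, against 45.1, 49.2 and 46.2 CPM in unirradiated libraries (log2 fold change 0.40 ± 0.07 SE, adjusted p = 6.79e-05). The faller was BBC3, the pro-apoptotic PUMA, at 3.39, 3.45 and 3.65 CPM in irradiated libraries, against 5.28, 5.39 and 4.94 CPM in unirradiated libraries (log2 fold change -0.57 ± 0.17 SE, adjusted p = 0.0163), and its adjusted p was 0.0561 without irradiated library 1. Omitting any one library left 2 to 4 of the family called higher.

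Genes of DNA replication fell together by small steps. Of 40 tested replication and G1/S genes, 16 fell and 2 rose, against 8.49% of all genes called lower, and the median log2 fold change was -0.16. PCNA, the sliding clamp, had 155, 162 and 155 CPM in irradiated libraries, against 203, 206 and 185 CPM in unirradiated libraries (log2 fold change -0.33 ± 0.05 SE, adjusted p = 2.23e-05). MCM6, a subunit of the replicative helicase, had 129, 129 and 129 CPM in irradiated libraries, against 169.9, 163 and 159 CPM in unirradiated libraries (log2 fold change -0.34 ± 0.06 SE, adjusted p = 6.99e-05). CDC45 and LIG1, a helicase partner and a DNA ligase, fell by 0.38 and 0.36 on the log2 scale (adjusted p = 0.000314 and 0.000133). No replication gene named here overlapped between groups. With any one library left out 9 to 13 of the 40 were called lower, the fewest without unirradiated library 3.

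Most mitotic genes were not called. Of 40 tested, 3 rose and 0 fell by edgeR, DESeq2 and limma-voom alike, and at an unadjusted p under 0.05 edgeR had 6 higher and 2 lower. UBE2C, the ubiquitin carrier of the anaphase-promoting complex, had 124, 118 and 118 CPM in irradiated libraries, against 93.5, 98.3 and 102 CPM in unirradiated libraries (log2 fold change 0.29 ± 0.05 SE, adjusted p = 0.000121). CCNB1, cyclin B1, averaged 305 ± 7.7 CPM in irradiated and 299.9 ± 5.9 CPM in unirradiated libraries (SD, n = 3 each), and its adjusted p was 0.788. PLK1, a mitotic kinase, and MKI67, a marker of cycling cells, had log2 fold changes of -0.03 and -0.20 and were not called (adjusted p = 0.838 and 0.143). Omitting single libraries left 1 to 2 mitotic genes called higher.

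LMNB1 and HMGB2, whose loss is used as a sign of senescence, were both lower. LMNB1, a lamin of the nuclear envelope, had 160.5, 147 and 155 CPM in irradiated libraries, against 194, 208 and 202 CPM in unirradiated libraries (log2 fold change -0.39 ± 0.05 SE, adjusted p = 3.22e-06). HMGB2, a chromatin protein, had 152, 129.7 and 137 CPM in irradiated libraries, against 187, 199 and 203 CPM in unirradiated libraries (log2 fold change -0.49 ± 0.07 SE, adjusted p = 4.19e-06). Neither gene overlapped between groups.

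Histone genes changed in both directions. Of 39 tested 3 rose and 8 fell (28.2% called, against 17.9% of all genes). The 3 that rose were replication-dependent histones of the cluster on chromosome 6, led by HIST1H2AC with 9.22, 8.43 and 8.61 CPM in irradiated libraries, against 2.36, 2.58 and 2.72 CPM in unirradiated libraries (log2 fold change 1.78 ± 0.13 SE, adjusted p = 4.9e-11). HIST1H2BD had 4.05, 3.86 and 4.24 CPM in irradiated libraries, against 1.7, 2.35 and 2.1 CPM in unirradiated libraries (log2 fold change 0.98 ± 0.20 SE, adjusted p = 0.000816), and HIST1H2BC, at under 3 CPM, had a log2 fold change of 1.93 (adjusted p = 0.000445). The called falls with the smallest p were in replication-independent variants. H1F0, a linker histone, had 101, 94.7 and 90.1 CPM in irradiated libraries, against 159, 163 and 164 CPM in unirradiated libraries (log2 fold change -0.77 ± 0.07 SE, adjusted p = 1.17e-08), and H1FX, another linker histone, fell by 0.77 on the log2 scale (adjusted p = 3.47e-07). H2AFV, a variant of histone H2A, had 128, 128 and 129.7 CPM in irradiated libraries, against 176, 178 and 183 CPM in unirradiated libraries (log2 fold change -0.48 ± 0.05 SE, adjusted p = 9.44e-09). The other clustered histone genes tested were not called, with log2 fold changes of either sign. Clustered histone genes are near-identical, so how reads were assigned among them is uncertain.

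Few repair genes for double-strand breaks changed: 4 of 40 (10%, against 8.49% over all genes) were lower and 0 higher by edgeR, DESeq2 and limma-voom, and at an unadjusted p under 0.05 edgeR had 2 higher and 8 lower. XRCC6, the Ku70 subunit that binds broken ends, had 722, 712 and 695 CPM in irradiated libraries, against 787, 838 and 828 CPM in unirradiated libraries (log2 fold change -0.20 ± 0.04 SE, adjusted p = 0.00152). With any one library left out, 1 to 2 of the 40 were called lower.

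Interferon-stimulated genes rose in part. Of 33 tested, 7 rose and 1 fell (24.2% called, against 17.9% of all genes), with a median log2 fold change of 0.14. IFIT2, an antiviral RNA-binding protein, had 26.8, 24.8 and 25.5 CPM in irradiated libraries, against 9.89, 10.0 and 9.7 CPM in unirradiated libraries (log2 fold change 1.38 ± 0.14 SE, adjusted p = 1.98e-08). ISG15, a ubiquitin-like modifier, had 8.1, 7.42 and 7.17 CPM in irradiated libraries, against 2.58, 5.56 and 4.71 CPM in unirradiated libraries (log2 fold change 0.83 ± 0.20 SE, adjusted p = 0.00352). IFIT2 was far above its unirradiated range in every irradiated library, and ISG15 lay closer to it. With any one library left out, 3 to 6 of the list were called higher, the fewest without irradiated library 1.

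Some antigen presentation genes rose, and ligands of immune receptors changed in both directions. Of 20 antigen presentation genes 5 rose and 0 fell by edgeR (25% called, against 17.9% of all genes). At an unadjusted p under 0.05 the counts were 8 and 1. DESeq2 had 6 and 0, and limma-voom 5 and 0. B2M, the light chain of class I molecules, had 316, 318 and 322 CPM in irradiated libraries, against 245, 254 and 242 CPM in unirradiated libraries (log2 fold change 0.37 ± 0.05 SE, adjusted p = 4.81e-06). HLA-B had 13.2, 16.4 and 12.9 CPM in irradiated libraries, against 9.73, 7.16 and 9.53 CPM in unirradiated libraries (log2 fold change 0.69 ± 0.13 SE, adjusted p = 0.000233), and reads of HLA genes can match several of them. Omitting single libraries left 2 to 4 called higher.

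Of 17 immune ligands 6 rose (4 to 5 with any one library left out) and 2 fell (1 to 2). The share called was 47.1%, against 17.9% of all genes. CD274, which encodes PD-L1, had 15.3, 17.3 and 18.1 CPM in irradiated libraries, against 10.0, 7.73 and 10.2 CPM in unirradiated libraries (log2 fold change 0.86 ± 0.12 SE, adjusted p = 6.97e-06). CD47, which restrains macrophages, had 129, 137 and 139 CPM in irradiated libraries, against 96.7, 103 and 107 CPM in unirradiated libraries (log2 fold change 0.41 ± 0.07 SE, adjusted p = 0.000112). ULBP2, a ligand of the NK receptor NKG2D, had 17.3, 17.6 and 16.7 CPM in irradiated libraries, against 10.9, 12.9 and 11.4 CPM in unirradiated libraries (log2 fold change 0.55 ± 0.10 SE, adjusted p = 0.000177). TNFSF9, a costimulatory ligand, had 7.6, 7.47 and 4.96 CPM in irradiated libraries, against 14.1, 16.4 and 12.5 CPM in unirradiated libraries (log2 fold change -1.09 ± 0.15 SE, adjusted p = 3.39e-06). ULBP1, another ligand of NKG2D, fell by 1.28 on the log2 scale at under 3 CPM (adjusted p = 0.0107, and 0.0614 without irradiated library 1). CD274, CD47, ULBP2 and TNFSF9 were separate between groups.

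Some feedback genes of MAP kinase signalling rose, and the receptor EGFR was lower. Of 20 tested EGFR ligands, receptor and MAP kinase feedback genes, 9 rose and 3 fell (2 to 3 with any one library left out). The 3 were EREG, EGFR and ERRFI1, a feedback inhibitor of EGFR, which fell by 0.20 on the log2 scale (adjusted p = 0.0162, and 0.092 without unirradiated library 3). DUSP4, a phosphatase of MAP kinases, had 62.3, 64.6 and 58.8 CPM in irradiated libraries, against 23.7, 28.9 and 28.4 CPM in unirradiated libraries (log2 fold change 1.20 ± 0.08 SE, adjusted p = 9.24e-12). DUSP6, a phosphatase of ERK, had 82.9, 85.2 and 85.4 CPM in irradiated libraries, against 34.9, 42.9 and 43.7 CPM in unirradiated libraries (log2 fold change 1.06 ± 0.08 SE, adjusted p = 5.46e-11). Both were higher in every irradiated library, with a wide gap between groups.

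HBEGF, a ligand of EGFR, had 72.9, 72.9 and 72.9 CPM in irradiated libraries, against 41.2, 49.4 and 47.3 CPM in unirradiated libraries (log2 fold change 0.67 ± 0.07 SE, adjusted p = 5.29e-08). EREG, another ligand, had 31.1, 30.4 and 30.2 CPM in irradiated libraries, against 46.6, 50.9 and 49.7 CPM in unirradiated libraries (log2 fold change -0.68 ± 0.08 SE, adjusted p = 1.79e-07), so these ligands moved in opposite directions. EGFR had 487, 480.0 and 508 CPM in irradiated libraries, against 626, 589.6 and 634 CPM in unirradiated libraries (log2 fold change -0.33 ± 0.06 SE, adjusted p = 0.000108). Of 22 immediate early genes 8 rose and 2 fell: EGR1 and DUSP1 rose with log2 fold changes of 0.56 and 0.77 (adjusted p = 1.95e-07 and 2.35e-07), whereas JUND had 31.9, 28.7 and 24.5 CPM in irradiated libraries, against 63.4, 56.8 and 54.1 CPM in unirradiated libraries (log2 fold change -1.03 ± 0.10 SE, adjusted p = 1.11e-08). FOSL1, an AP-1 subunit, had 213, 229 and 221 CPM in irradiated libraries, against 141, 163 and 156 CPM in unirradiated libraries (log2 fold change 0.53 ± 0.06 SE, adjusted p = 3.27e-07).

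NRF2 target genes were lower more often than higher. Of 36 tested, 14 fell and 2 rose (44.4% called, against 17.9% of all genes), with a median log2 fold change of -0.10. GCLM, a subunit of the enzyme that makes glutathione, had 218, 215 and 222 CPM in irradiated libraries, against 307, 308 and 285 CPM in unirradiated libraries (log2 fold change -0.46 ± 0.05 SE, adjusted p = 2.11e-07). SLC7A11, the cystine importer, had 175, 177 and 195 CPM in irradiated libraries, against 299, 284 and 296 CPM in unirradiated libraries (log2 fold change -0.68 ± 0.12 SE, adjusted p = 0.000116). IDH1, which makes cytosolic NADPH, had 103, 98.3 and 102 CPM in irradiated libraries, against 162, 160.3 and 153 CPM in unirradiated libraries (log2 fold change -0.65 ± 0.05 SE, adjusted p = 7.49e-10). All 3 were separate between groups, and NQO1, a quinone reductase, fell by 0.28 on the log2 scale (adjusted p = 0.00312).

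NFE2L2, the gene of NRF2, was higher, with 217, 219.9 and 222 CPM in irradiated libraries, against 165, 173 and 167 CPM in unirradiated libraries (log2 fold change 0.38 ± 0.06 SE, adjusted p = 8.02e-05). KEAP1, its inhibitor, was not called (log2 fold change 0.13 ± 0.07 SE, adjusted p = 0.185). AKR1C1, an aldo-keto reductase with near-identical copies, was 1 of the 2 target genes that rose, at 11.5, 12.7 and 13.1 CPM in irradiated libraries, against 6.49, 8.59 and 8.4 CPM in unirradiated libraries (log2 fold change 0.67 ± 0.11 SE, adjusted p = 9.57e-05). With any one library left out, 9 to 13 of the NRF2 targets were called lower, the fewest without unirradiated library 1.

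Targets of ATF4, the factor of amino acid stress, fell as well. Of 28 tested, 12 fell and 2 rose (50% called, against 17.9% of all genes), with a median log2 fold change of -0.20. The summed CPM was 5736 to 5825 in irradiated and 8400 to 8615 in unirradiated libraries. Most of that fall came from 1 gene, SLC7A5, described next, and 14 of the 28 targets were not called. SLC7A5, a transporter of large neutral amino acids, had 2458, 2462 and 2412 CPM in irradiated libraries, against 4332, 4123 and 4199 CPM in unirradiated libraries (log2 fold change -0.79 ± 0.05 SE, adjusted p = 1.27e-12). Its partner subunit SLC3A2 had 742, 740.2 and 728 CPM in irradiated libraries, against 1114, 1124 and 1120.2 CPM in unirradiated libraries (log2 fold change -0.60 ± 0.05 SE, adjusted p = 5.96e-10). Both subunits were lower in all 3 irradiated libraries. PHGDH, which starts serine synthesis, had 212, 213 and 208 CPM in irradiated libraries, against 306, 301 and 289.9 CPM in unirradiated libraries (log2 fold change -0.50 ± 0.07 SE, adjusted p = 2.25e-06), also with no overlap.

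Other metabolic groups held more falls than rises. Of 27 hypoxia and glycolysis genes 12 fell and 2 rose (51.9% called, against 17.9% of all genes). SLC2A1, a glucose transporter, had 276, 274 and 260.3 CPM in irradiated libraries, against 351, 359 and 342 CPM in unirradiated libraries (log2 fold change -0.38 ± 0.06 SE, adjusted p = 1.89e-05). Of 12 fatty acid synthesis genes 5 fell and 0 rose by edgeR, DESeq2 and limma-voom (41.7% called). At an unadjusted p under 0.05 edgeR had 6 lower and 2 higher. SREBF1, their transcription factor, had 148, 146 and 146 CPM in irradiated libraries, against 244, 233 and 229 CPM in unirradiated libraries (log2 fold change -0.68 ± 0.06 SE, adjusted p = 1.55e-09), and SCD, a fatty acid desaturase, fell by 0.57 on the log2 scale (adjusted p = 2.05e-10).

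Of 23 cholesterol synthesis genes 6 fell and 0 rose by edgeR, DESeq2 and limma-voom (26.1% called, against 17.9% of all genes). At an unadjusted p under 0.05 edgeR had 9 lower and 0 higher. STARD4, a sterol carrier, had 26.5, 30.4 and 32 CPM in irradiated libraries, against 45.9, 42.5 and 43.1 CPM in unirradiated libraries (log2 fold change -0.57 ± 0.10 SE, adjusted p = 8.77e-05). Of 18 genes of the unfolded protein response 3 fell and 0 rose by edgeR, DESeq2 and limma-voom. At an unadjusted p under 0.05 edgeR had 5 lower and 0 higher. The share called was 16.7%, near the 17.9% of all genes. HSPA5, the chaperone of the endoplasmic reticulum, had 1152, 1139 and 1149 CPM in irradiated libraries, against 1419, 1422 and 1404 CPM in unirradiated libraries (log2 fold change -0.30 ± 0.04 SE, adjusted p = 3.96e-06).

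Lysosomal genes rose in part: 11 of 26 were higher and 1 lower (46.2% called, against 17.9% of all genes). The other 14 were not called, and the median log2 fold change was 0.135. CTSB, a cathepsin, had 267, 273 and 254 CPM in irradiated libraries, against 177, 188 and 191 CPM in unirradiated libraries (log2 fold change 0.52 ± 0.06 SE, adjusted p = 8.21e-07). NEU1, a sialidase, and NPC1, a cholesterol exporter of the lysosome, rose with log2 fold changes of 0.49 and 0.33 (adjusted p = 1.03e-05 and 0.000238). By contrast, of 82 ribosomal protein genes 1 rose and 4 fell, and of 76 nuclear respiratory chain genes 2 rose and 2 fell (6.1% and 5.26% called). Fitted on the 2 groups alone, these counts were 6 higher and 19 lower for ribosomal and 15 higher and 5 lower for respiratory genes. With any one library left out they were 0 to 2 and 3 to 4 for ribosomal and 0 to 4 and 0 to 2 for respiratory genes. Of 15 heat shock genes 4 fell (2 to 4 with any one library left out) and 0 rose by edgeR, with 6 lower and 1 higher at an unadjusted p under 0.05 and 5 lower by DESeq2 and by limma-voom. Among the 13 genes of the mitochondrial genome 3 fell (1 to 4 with any one library left out) and 0 rose by edgeR. At an unadjusted p under 0.05 edgeR had 4 lower and 1 higher. DESeq2 had 4 lower and 1 higher, and limma-voom 3 and 0. The shares called were 26.7% for heat shock and 23.1% for mitochondrial genes, against 17.9% of all genes.

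**Figure D3:**
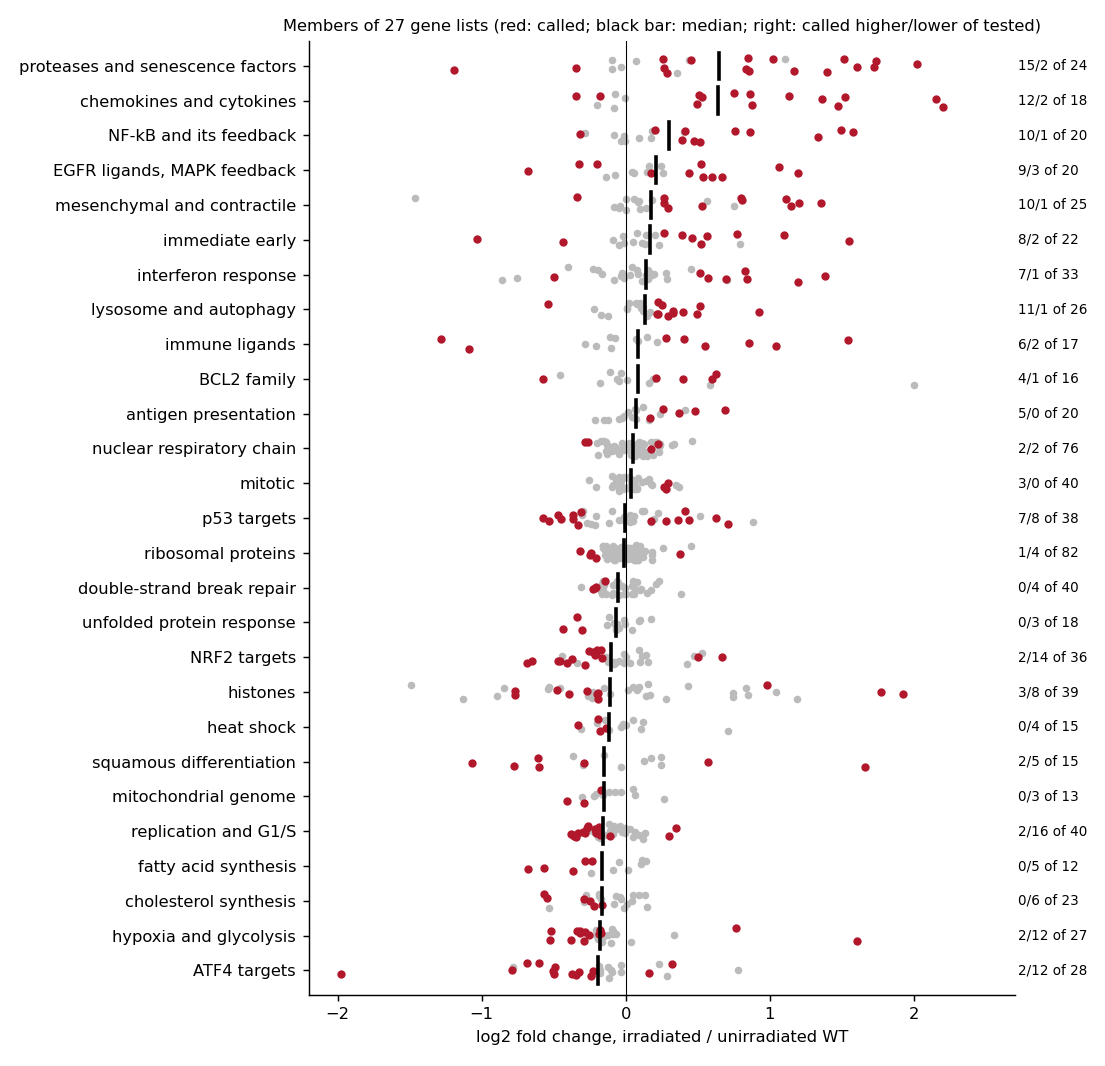
Log2 fold changes of irradiated over unirradiated WT cells for the tested members of 27 gene lists, 1 point a gene, red where called, with the median of each list as a black bar and the counts called higher and lower at the right. Proteases, chemokines and NF-kB genes head the figure with medians of 0.65, 0.64 and 0.30, and ATF4 targets close it with -0.20.

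Matrix and mesenchymal genes rose more often than they fell, and squamous carcinoma markers moved both ways. Of 25 mesenchymal and contractile genes 10 rose and 1 fell (44% called, against 17.9% of all genes). The other 14 were not called, and the median log2 fold change was 0.18. FN1 (ENSG00000115414, chr2:215360440-215436172, minus strand), fibronectin, had 1881, 1873 and 1913 CPM in irradiated libraries, against 816, 773 and 878 CPM in unirradiated libraries (log2 fold change 1.20 ± 0.05 SE, adjusted p = 4.66e-15). LOX, which cross-links collagen, had 26.3, 25.1 and 25.6 CPM in irradiated libraries, against 10.4, 10.0 and 9.59 CPM in unirradiated libraries (log2 fold change 1.36 ± 0.09 SE, adjusted p = 2.53e-11). CTGF, a matricellular factor, and ANKRD1 rose with log2 fold changes of 1.15 and 1.11 (adjusted p = 1.7e-12 and 5.19e-12).

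SPARC, another matrix protein, was the member that fell, at 612, 584 and 572 CPM in irradiated libraries, against 736, 752 and 744 CPM in unirradiated libraries (log2 fold change -0.34 ± 0.04 SE, adjusted p = 9.67e-07). Over the same libraries the summed fibroblast markers, given above, were 84 to 130 counts in irradiated and 122 to 150 in unirradiated libraries. Of the 12 squamous carcinoma markers 4 rose and 3 fell. KRT5, a basal keratin, had 1098, 1058 and 1022 CPM in irradiated libraries, against 1488, 1484 and 1484 CPM in unirradiated libraries (log2 fold change -0.49 ± 0.06 SE, adjusted p = 9.45e-07). KRT17 fell by 0.67 on the log2 scale (adjusted p = 1.58e-07), and TP63, the master factor of basal squamous cells, by 0.24 (adjusted p = 0.000629). KRT8 was not called (log2 fold change 0.04 ± 0.07 SE, adjusted p = 0.772), and EPCAM, an epithelial adhesion molecule, rose (log2 fold change 0.27 ± 0.06 SE, adjusted p = 0.00224). KRT6A, a keratin of stressed epithelium, rose by 0.46 (adjusted p = 0.0286, and 0.139 without irradiated library 2), and PERP, a desmosome protein, by 0.18 (adjusted p = 0.00307). KRT6A was not called in 5 of the 6 fits that left out 1 library. The other riser, an epithelial cadherin, rose by 0.18 (adjusted p = 0.0161) and was not called in 4 of those 6 fits.

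How far these effects were shared was read from the 2 other radiation comparisons, which use none of the 6 libraries. In E79Q cells 3557 genes (22.3%) changed, and in WT cells with CB-839 3774 (23.7%). Of the 1501 genes higher in WT cells, 967 were higher in E79Q cells, where 12.2% of all genes were (64.4% of the WT list and 49.7% of the E79Q list), and 911 were higher in WT cells with CB-839, where 13.2% were (60.7% and 43.2%). Of the 1354 lower genes, 782 were lower in E79Q cells, where 10.1% of all genes were (57.8% and 48.5%), and 495 with CB-839, where 10.4% were (36.6% and 29.8%). Genes called in the opposite direction numbered 10 and 22 in E79Q cells and 11 and 65 with CB-839, for the higher and lower genes of WT cells in that order.

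Of the 18 chemokine and cytokine genes, 12 rose in WT cells, 14 in WT cells with CB-839 and 13 in E79Q cells. CXCL1 had log2 fold changes of 1.52 in WT cells, 1.57 in WT cells with CB-839 and 1.80 in E79Q cells. TNFAIP3, of the NF-kB list, had 1.34, 1.52 and 1.67 in the same order. The differences between WT and the other settings were not called for either gene. Medians of the chemokine and cytokine list were 0.64, 0.95 and 0.86 in that order. The sizes of the rises were not the same throughout. Of the 18, 3 had a called negative difference from CB-839, against 2.75% of all genes, and 3 from E79Q, against 0.815%. Of the 24 proteases and senescence factors, 2 had a positive and 4 a negative difference from CB-839, and 2 and 2 from E79Q.

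**Figure D4:**
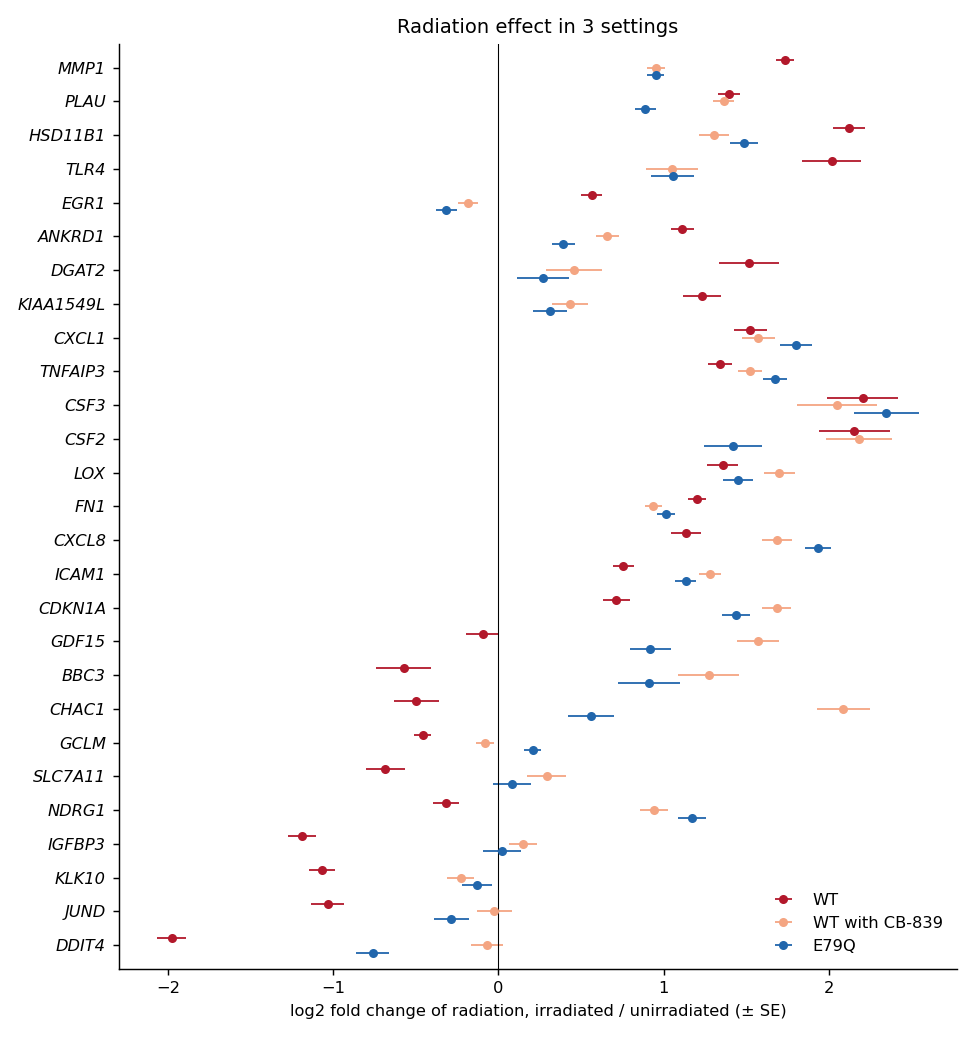
Log2 fold change of radiation with its SE for 27 genes in WT cells (red), WT cells with CB-839 (light orange) and E79Q cells (blue), all from 1 model of the 24 libraries. CXCL1, TNFAIP3 and CSF3 lie close together in the 3 settings, whereas DDIT4, IGFBP3, KLK10 and CHAC1 are lower in WT cells, with values of -1.98, -1.19, -1.06 and -0.50.

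Fitted directly as an interaction, the radiation effect in WT cells minus that in E79Q cells was called for 201 genes (1.26%), 71 positive (0.445%) and 130 negative (0.815%). The effect in WT cells without the drug minus that with CB-839 was called for 641 genes (4.02%), 202 positive (1.27%) and 439 negative (2.75%). Of the 2855 genes that changed in WT cells, 135 (4.73%) had a called difference from E79Q cells and 365 (12.8%) from CB-839. The 2 differences share the 6 WT libraries, and 117 genes were called in both, so they are not independent.

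DDIT4, the mTORC1 inhibitor, was among the genes called in both. Its CPM, irradiated and then unirradiated, was 27.3 ± 2.1 and 107 ± 3.4 CPM in WT cells, 20.5 ± 1.8 and 21.5 ± 1.2 CPM in WT cells with CB-839 and 13.5 ± 0.32 and 22.9 ± 0.63 CPM in E79Q cells (SD, n = 3 each). Among these 6 groups unirradiated WT cells stood far above the rest. The WT effect minus the E79Q effect was -1.22 ± 0.13 SE (adjusted p = 2.92e-06), and the effect without minus with CB-839 was -1.91 ± 0.13 SE (adjusted p = 3.58e-10). IGFBP3 followed the same layout in WT cells, with 45.9 ± 2.2 and 105 ± 3.3 CPM without and 48.5 ± 3.3 and 43.7 ± 3.7 CPM with CB-839, and it was lower throughout E79Q cells at 8.76 ± 0.15 and 8.65 ± 1.1 CPM. Its differences were -1.21 ± 0.14 SE (adjusted p = 6.91e-06) and -1.34 ± 0.12 SE (adjusted p = 3.74e-08).

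CHAC1, which degrades glutathione and is a target of ATF4, had 12.9 ± 1.4 and 18.2 ± 0.49 CPM in irradiated and unirradiated WT cells, 16.8 ± 2.7 and 3.97 ± 1.2 CPM with CB-839 and 16.7 ± 1 and 11.3 ± 1.3 CPM in E79Q cells. The fall in WT cells (log2 fold change -0.50, adjusted p = 0.0102, and 0.0655 without irradiated library 3) stood against rises of 2.09 and 0.56 in the other settings. Its differences were -2.58 ± 0.21 SE (adjusted p = 7.01e-09) from CB-839 and -1.06 ± 0.19 SE (adjusted p = 0.003) from E79Q. Of the 28 ATF4 targets, 22 had a called negative difference from CB-839, against 2.75% of all genes, and 9 had one from E79Q, against 0.815%.

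Among the 36 NRF2 targets, 13 had a called negative difference from CB-839 and 9 from E79Q. In E79Q cells 19 of the 36 rose and 3 fell after radiation, and in WT cells with CB-839 16 rose and 1 fell, against 2 and 14 in WT cells. GCLM had log2 fold changes of -0.46 in WT cells and 0.21 in E79Q cells, a difference of -0.66 ± 0.07 SE (adjusted p = 2.92e-06). SLC7A11 had -0.68 and 0.08, a difference of -0.77 ± 0.17 SE (adjusted p = 0.013), with an adjusted p of 0.0511 without irradiated WT library 1.

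CDKN1A rose in all 3 settings but least in WT cells without the drug. Its CPM was 91.6 ± 2.3 and 55.9 ± 2 CPM in irradiated and unirradiated WT cells, 89 ± 4.5 and 27.7 ± 3 CPM with CB-839 and 103 ± 6 and 38.2 ± 5.5 CPM in E79Q cells. Of the unirradiated groups, WT cells without the drug had the highest mean. The differences were -0.72 ± 0.12 SE (adjusted p = 0.000678) from E79Q and -0.97 ± 0.12 SE (adjusted p = 4.13e-06) from CB-839. CXCL8 also rose less in WT cells than in E79Q cells, where it had 60.6 ± 5.6 and 15.9 ± 0.18 CPM irradiated and unirradiated, a difference of -0.80 ± 0.12 SE (adjusted p = 0.000234).

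MMP1 went the other way: its rise was larger in WT cells. It had 659 ± 18.8 and 198 ± 11.2 CPM in irradiated and unirradiated WT cells, 459.6 ± 7.3 and 237 ± 8 CPM with CB-839 and 1469 ± 17.7 and 761 ± 58.2 CPM in E79Q cells, so that E79Q cells had the higher level in both states. The differences were 0.79 ± 0.07 SE (adjusted p = 3.35e-07) and 0.78 ± 0.08 SE (adjusted p = 7.96e-08). EGR1 had log2 fold changes of 0.56 in WT cells, -0.18 with CB-839 and -0.32 in E79Q cells, with differences of 0.88 ± 0.09 SE (adjusted p = 1.07e-06) and 0.75 ± 0.09 SE (adjusted p = 2.52e-06). DGAT2, which makes triglycerides, rose by 1.52 on the log2 scale in WT cells, and its difference from E79Q was 1.25 ± 0.24 SE (adjusted p = 0.00483).

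**Figure D5:**
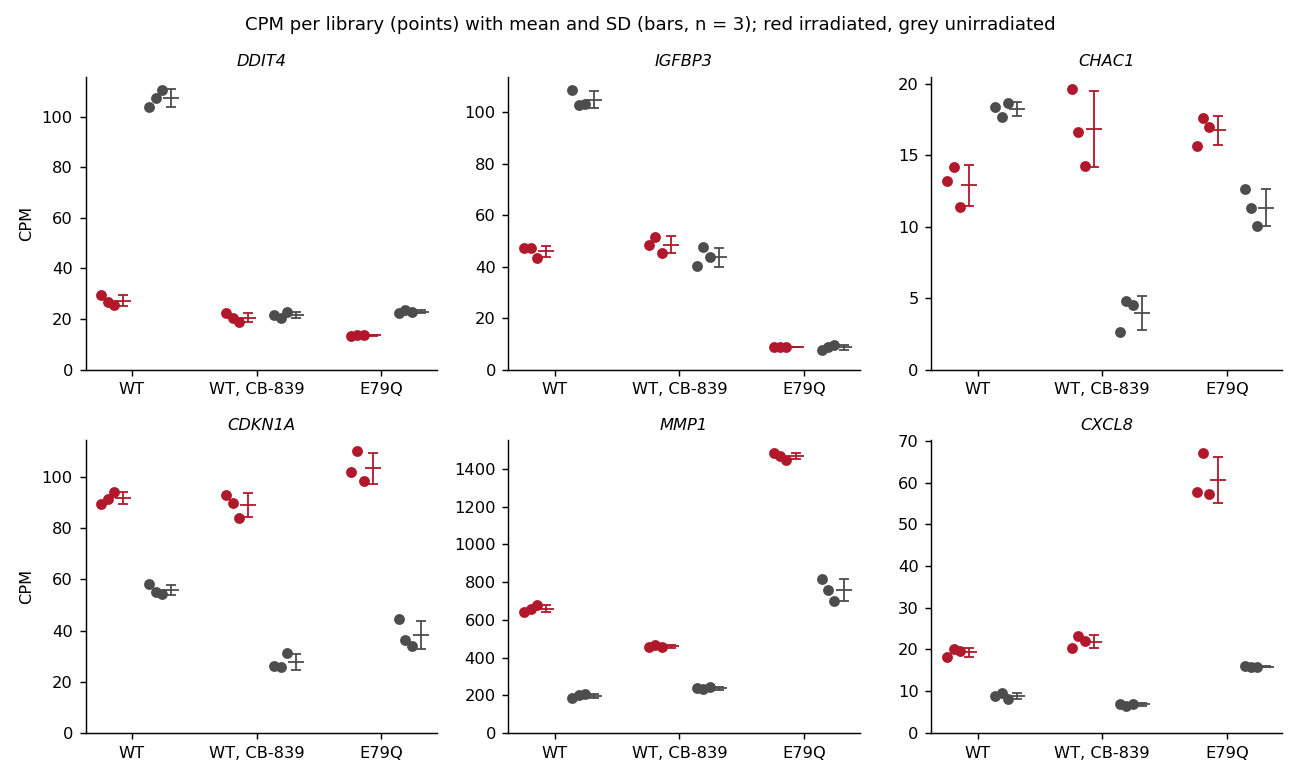
CPM per library, with the mean and SD of 3, for 6 genes in irradiated (red) and unirradiated (grey) WT cells, WT cells with CB-839 and E79Q cells, on linear axes from 0. For DDIT4 and IGFBP3 unirradiated WT cells stand above the other 5 groups, and for CDKN1A each irradiated group lies above its unirradiated one.

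In genes with a called difference from CB-839, unirradiated groups stood apart more often than over all genes. For each gene the WT group farthest from the nearest of the other 3, by log2 mean CPM, was found after the values of DDIT4 were seen. Among the 641 genes with a called difference it was irradiated WT cells in 10.5%, irradiated WT cells with CB-839 in 12.6%, unirradiated WT cells in 37.1% and unirradiated WT cells with CB-839 in 39.8%. Over all tested genes the shares were 18.5%, 29%, 27.2% and 25.3% in the same order. The 641 genes were picked by a contrast of these same group means, and that choice favours genes in which a single group stands apart. All tested genes were not picked in this way, so the shares are a description and cannot show a cause. Why unirradiated groups stood apart in these genes was not tested. Whether unirradiated cultures differed in density, medium or time of collection is not stated, and radiation and such differences cannot be told apart.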

How the data were processed

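Levels start from raw read counts per Ensembl gene, deposited by the authors as 1 table of 58735 genes and 24 libraries (8 groups of 3). STAR, HTSeq and GRCh38 are named in the submitters' processing notes, with no versions or roles. The strand setting and annotation release are not stated. The deposited table also holds other values, gene lengths in base pairs.

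The count model was edgeR 4.0.16 in R 4.3.3, with limma 3.58.1 and DESeq2 1.42.0 as alternatives. Of 34983 genes with any read, filterByExpr kept 15956. Libraries were scaled by TMM, with CPM on scaled sizes. A quasi-likelihood model with 8 group means used all 24 libraries, which share 1 estimate of the spread (16 residual degrees of freedom, common biological coefficient of variation 7.19%). Differences between radiation effects were interaction contrasts of the same fit. A call needs a 2-sided p under 0.05 after Benjamini-Hochberg adjustment. With 3 against 3 libraries an exact test of 1 gene cannot go below p = 0.1.

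Named were called protein-coding genes whose groups did not overlap, with mean log2 CPM from 1 upward: the 12 largest changes each way, with 3 lncRNAs each way. Also named were up to 4 list members each way by smallest p, the 6 largest of each difference each way, and a fixed set of NRF2, p53, cycle, cytokine and immune genes. Some genes that these rules name are not reported here. The members and lists were chosen with earlier results of these data known. The scripts were tested on simulated data. Alternatives were other tools, scalings and filters, the compared groups alone, a replicate block, removal of GC and length trends, omission of 4 libraries with a GC trend, and omission of each library. Promoters are RefSeq windows of GRCh38.p14.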

Additional observations from a re-analysis of the deposited data

Results flagged for a closer look

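Genes were singled out here because their radiation effect in WT cells differed from that in another setting by edgeR's interaction test at an adjusted p under 0.05. All values are differences of log2 fold changes. The 2 differences share the 6 WT libraries. Of the genes named in the text, 37 differed from E79Q cells, 24 with a lower and 13 with a higher effect in WT cells. From CB-839 60 differed, 38 lower and 22 higher. In fits that left out 1 of the 12 libraries in turn, 27 of the 37 and 48 of the 60 were called every time.

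Lower effects in WT than in E79Q cells were -1.78 for F2RL2, a protease-activated receptor, -1.49 for NDRG1, a stress-induced gene, -1.48 for BBC3 and -1.35 for NOTCH3, a Notch receptor. They were -1.22 for DDIT4, -1.21 for IGFBP3, -1.06 for CHAC1, -1.01 for both GDF15 and KRT6A and -0.93 for KLK10. Smaller ones were -0.80 for CXCL8, -0.77 for SLC7A11, -0.75 for JUND, -0.72 for CDKN1A, -0.66 for GCLM, -0.57 for AKR1C1 and -0.55 for KRT17. The smallest were -0.48 for TNFAIP2, -0.44 for EREG, -0.41 for VEGFA, -0.40 for HBEGF, -0.38 for ICAM1, -0.37 for HSPA5 and -0.33 for TXNRD1, the thioredoxin reductase. Without irradiated E79Q library 1 EREG had an adjusted p of 0.135, and without its library 2 KRT6A had 0.0901. Without irradiated WT library 3 ICAM1 had 0.132, and without library 1 SLC7A11 had 0.0511. Without unirradiated WT library 2 AKR1C1 had 0.183 and HBEGF 0.154. Of the 12 fits that left out 1 library, EREG was not called in 11, and AKR1C1 and HBEGF in 10 each. ICAM1 was not called in 9, KRT6A in 5 and SLC7A11 in 1. F2RL2 had 4.62 ± 0.78 and 5.86 ± 0.46 CPM in irradiated and unirradiated WT cells and 33.9 ± 1.2 and 12.6 ± 1.3 CPM in E79Q cells (SD, n = 3 each).

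Higher effects in WT than in E79Q cells were 1.25 for DGAT2, 1.13 for LYPD1, 1.12 for DPF3, 1.11 for INSYN2B, 0.96 for TLR4, 0.92 for KIAA1549L and 0.88 for EGR1. They were 0.81 for HIST1H2AC, 0.79 for MMP1, 0.72 for ANKRD1, 0.69 for LINC00973, 0.63 for HSD11B1 and 0.51 for PLAU. HIST1H2AC had an adjusted p of 0.0521 without unirradiated WT library 1, and LINC00973 had 0.119 without library 3. LINC00973 was not called in 9 of the 12 fits that left out 1 library, and HIST1H2AC in 1. LYPD1 had an adjusted p of 0.162 without irradiated E79Q library 1 and was not called in 10 of the 12 fits that left out 1 library. TLR4 had 0.11 without unirradiated WT library 2 and was not called in 6 of the 12. DPF3 had 8.11 ± 0.64 and 3.99 ± 0.55 CPM in irradiated and unirradiated WT cells and 9.95 ± 0.24 and 10.7 ± 0.69 CPM in E79Q cells.

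Lower effects without than with CB-839 were -2.58 for CHAC1, -2.49 for ULBP1, -2.26 for SLC6A9, a glycine transporter, -1.91 for DDIT4, -1.84 for BBC3, -1.82 for ASNS, the asparagine synthetase, and -1.67 for GDF15. They were -1.34 for IGFBP3, -1.31 for EDIL3, -1.26 for NDRG1, -1.14 for NOTCH3, -1.01 for JUND, -0.99 for F2RL2, -0.98 for SLC7A11 and -0.97 for CDKN1A. Next were -0.90 for PHGDH, -0.89 for KRT17, -0.84 for KLK10, -0.80 for H19, -0.77 for VEGFA and -0.74 for both EREG and NANOS1. They were -0.62 for SLC7A5 and SERPINB2, -0.61 for SLC3A2, -0.58 for HSPA5, -0.57 for TNFAIP2, -0.55 for CXCL8 and -0.52 for ERRFI1 and ICAM1. The smallest were -0.43 for HBEGF and NQO1, -0.42 for NFKB2, -0.41 for SYT12, -0.38 for GCLM, -0.33 for PLXNB2 and -0.32 for SLC2A1 and TXNRD1. Single omissions gave adjusted p-values of 0.0609 for ULBP1 and 0.0779 for SLC2A1 (each without irradiated library 1 of WT cells with CB-839) and 0.0627 for EDIL3 (without irradiated WT library 1). They gave 0.103 for PLXNB2 (without unirradiated WT library 1) and 0.0625 for SYT12 (without unirradiated library 2 of WT cells with CB-839). Of the 12 fits that left out 1 library, SLC2A1 was not called in 6 and PLXNB2 in 4. EDIL3 and SYT12 were not called in 2 each and ULBP1 in 1. NDRG1 had 63.7 ± 2.9 and 79.4 ± 1.6 CPM in irradiated and unirradiated WT cells and 54.1 ± 1.8 and 28.2 ± 2.8 CPM with CB-839.

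Higher effects without than with CB-839 were 1.45 for NEXN, 1.30 for RAB30, 1.23 for DOCK4, 1.22 for ATP5ME, 1.16 for COL8A1, 1.15 for INSYN2B, 1.11 for MYH15, 1.06 for DGAT2 and 1.04 for DPF3. They were 0.97 for TLR4 and LINC01204, 0.92 for ZBED2, 0.89 for MMP3, 0.82 for HSD11B1, 0.80 for KIAA1549L, 0.78 for MMP1, 0.76 for MAOA and 0.75 for EGR1. The smallest were 0.45 for ANKRD1, 0.37 for CTGF, 0.26 for FN1 and 0.25 for UBE2C. Without unirradiated WT library 1 the adjusted p was 0.0571 for DGAT2, 0.0974 for CTGF and 0.173 for UBE2C. Without unirradiated library 1 of WT cells with CB-839 it was 0.184 for MAOA and 0.148 for FN1, and without its library 2 it was 0.0894 for TLR4. UBE2C was not called in any of the 12 fits that left out 1 library. MAOA and FN1 were not called in 10 each, CTGF in 7, TLR4 in 5 and DGAT2 in 2. COL8A1 had an adjusted p of 0.123 without unirradiated library 2 of WT cells with CB-839 and was not called in 9 of the 12 fits that left out 1 library. RAB30 had 8.54 ± 1.5 and 3.31 ± 0.27 CPM in irradiated and unirradiated WT cells and 5.26 ± 0.91 and 4.98 ± 0.32 CPM with CB-839.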

How the results depend on the processing

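The 2855 genes called for radiation in WT cells became 4322 when the 2 groups were fitted alone and 4313 without the 4 libraries with a GC trend, none of which is among the 6. The counts shared with the 2855 were 2777 and 2847. Other tools, scalings and filters and the removal of GC and length trends gave 2521 to 4019, and leaving out each library gave 2065 to 2254. The 201 genes that differed from E79Q cells became 572 with GC and length trends removed, 611 in the groups alone, 507 without the 4 libraries and 107 to 144 without 1 library. The 641 that differed from CB-839 became 1186, 1417 and 1824 under those settings, 997 with no filter and 363 to 718 without 1 library, the lowest without unirradiated library 2 of WT cells with CB-839. The cause of these shifts was not tested. Replicate numbers are shared between groups, but same-numbered irradiated and unirradiated WT libraries did not deviate together (r of -0.026, -0.009 and -0.008 across genes). Whether they shared a day or a culture is not stated, and these correlations cannot decide it. With the replicate block, in the groups alone, the 3 counts were 4405, 665 and 1160. No result changed direction under any alternative run. Of 189 named genes called in WT cells, limma-voom lost 2, upper quartile scaling 3, no filter 11 and the omission of 1 library 18 to 25. DESeq2, its size factors, GC and length removal and the groups alone lost none. List counts often moved, small and large. Without the 4 libraries, 3 mitotic genes called higher became 7, 4 ribosomal genes called lower became 19 and 4 repair genes called lower became 8. In that setting 12 hypoxia and glycolysis genes called lower became 19, and 16 replication genes called lower became 22. The 7 interferon-stimulated genes called higher became 12, while the 12 chemokine and cytokine genes called higher stayed at 12. With any one library left out, 8 to 10 hypoxia and glycolysis genes were called lower. Depth limits calls in genes of low count.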

Other observations

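Long noncoding RNAs changed as well. H19, an imprinted noncoding RNA of chromosome 11, had 751, 716 and 675 CPM in irradiated libraries, against 1976, 1954 and 1749.5 CPM in unirradiated libraries (log2 fold change -1.41 ± 0.06 SE, adjusted p = 4.66e-15), so that the groups were far apart. Its fall was smaller with CB-839, at -0.61, a difference of -0.80 ± 0.09 SE (adjusted p = 8.31e-07). LINC01204 had 9.42, 11.1 and 9.09 CPM in irradiated libraries, against 2.2, 2.18 and 2.61 CPM in unirradiated libraries (log2 fold change 2.08 ± 0.15 SE, adjusted p = 7.7e-11), and LINC00973 had 15.9, 17 and 19.7 CPM in irradiated libraries, against 6.27, 5.56 and 5.11 CPM in unirradiated libraries (log2 fold change 1.63 ± 0.13 SE, adjusted p = 1.67e-10). These noncoding RNAs were also picked with no overlap between groups as a condition. AC090023.2 rose by 1.62 on the log2 scale (adjusted p = 0.000128), and LINC01638 fell by 0.92 (adjusted p = 0.00289). AL121929.2 fell by 1.02 (adjusted p = 0.00901, and 0.0523 without unirradiated library 2).

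Squamous differentiation genes moved both ways. Of 15 tested, 5 fell (3 to 5 with any one library left out, the fewest without irradiated library 2) and 2 rose (1 to 2, the fewest without irradiated library 1). KLK10, a secreted kallikrein protease, had 33.4, 35.5 and 33.7 CPM in irradiated libraries, against 76.3, 71.5 and 66.8 CPM in unirradiated libraries (log2 fold change -1.06 ± 0.08 SE, adjusted p = 7.43e-11). ELF3, an epithelial transcription factor, had 37.6, 39.7 and 37.8 CPM in irradiated libraries, against 60.0, 56.1 and 58.3 CPM in unirradiated libraries (log2 fold change -0.60 ± 0.08 SE, adjusted p = 4.28e-06). S100A9, a subunit of calprotectin, rose at 22.3, 23.9 and 19.4 CPM in irradiated libraries, against 16.2, 13.1 and 15 CPM in unirradiated libraries (log2 fold change 0.57 ± 0.13 SE, adjusted p = 0.00276). KLK10 fell more in WT cells than in E79Q cells, a difference of -0.93 ± 0.12 SE (adjusted p = 3.17e-05), and its CPM in E79Q cells was 14.5 ± 0.55 and 15.9 ± 1.5 CPM irradiated and unirradiated (SD, n = 3 each).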
